A study of Mus musculus with 6 samples.

Results

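A set of 10 genes of blood vessels and their growth was followed in mouse ovarian granulosa cells (GCs) taken 6 h after cyclophosphamide (CTX). They were 3 secreted ligands (Vegfa, Angpt1 and Angpt2), 5 receptors or co-receptors (Kdr, Flt1, Tek, Nrp1 and Eng) and 2 adhesion molecules of the endothelial surface (Pecam1 and Cdh5). The genes were picked by name, and each matched 1 row of the deposited table, giving 10 of 54532 genes. The study asked how GCs respond to CTX, an alkylating chemotherapy drug that injures the ovary, shortly after the dose. Female ICR mice of 3 weeks had received 5 IU of PMSG, a gonadotropin that drives follicle growth, and 22 h later were given PBS or 120 mg/kg CTX. The control animals therefore carried the same PMSG stimulation as the treated animals. Each group had 3 samples, and each sample pooled the GCs of 3 mice, so differences between single animals could not be seen.

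Vascular endothelial growth factor A, the product of Vegfa, is a secreted signal read on endothelial cells by the receptor tyrosine kinases KDR (VEGFR2) and FLT1 (VEGFR1), with neuropilin 1 (Nrp1) as co-receptor. The angiopoietins act through another endothelial receptor, TEK (TIE2), which angiopoietin 1 activates and which angiopoietin 2 can block or activate depending on the setting. In the ovary the GC layer of a growing follicle has no vessels of its own and lies inside a basement membrane, with the capillaries in the theca outside it, and GCs are a known source of VEGFA for those vessels.

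The ligand Vegfa and its receptor genes Kdr and Flt1 stood at opposite ends of the levels measured here, so the 250 bases before their starts are shown (RefSeq, GRCm38.p6, each on the minus strand, the strand of the gene). The Vegfa stretch is chr17:46032378-46032627, that of Kdr is chr5:75978456-75978705 and that of Flt1 is chr5:147726012-147726261. Capitals mark the GC box letters GGGCGG or CCGCCC in Vegfa and the ETS core letters GGAA or TTCC in Kdr and Flt1, so that both strands were searched. ETS factors are a family of transcription factors with several members active in endothelial cells, and GC boxes are bound by Sp1 and related factors.
Vegfa: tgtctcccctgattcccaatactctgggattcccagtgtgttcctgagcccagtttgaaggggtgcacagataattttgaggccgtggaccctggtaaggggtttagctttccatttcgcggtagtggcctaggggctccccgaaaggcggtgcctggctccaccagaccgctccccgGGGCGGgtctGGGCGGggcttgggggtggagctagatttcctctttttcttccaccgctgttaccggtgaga
Kdr: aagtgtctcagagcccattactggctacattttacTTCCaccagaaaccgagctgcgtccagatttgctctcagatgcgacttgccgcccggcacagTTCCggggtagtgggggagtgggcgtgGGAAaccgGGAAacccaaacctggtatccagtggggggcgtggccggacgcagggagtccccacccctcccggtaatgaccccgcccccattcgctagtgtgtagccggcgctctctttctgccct
Flt1: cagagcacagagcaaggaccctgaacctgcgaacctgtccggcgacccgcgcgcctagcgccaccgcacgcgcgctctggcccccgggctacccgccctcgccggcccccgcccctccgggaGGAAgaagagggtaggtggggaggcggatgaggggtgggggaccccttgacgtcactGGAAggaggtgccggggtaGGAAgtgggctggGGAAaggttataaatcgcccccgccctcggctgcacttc

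Vegfa held 2 GC boxes in these 250 bases, Kdr held 2 and Flt1 held 3. At least 1 GC box was present in 32.7% of all 32851 RefSeq stretches of that length. The ETS core was found 4 times in Kdr, 4 times in Flt1 and 6 times in Vegfa, and 93.4% of all stretches held at least 1, so these short letters did not set the receptor genes apart. No ETS core shared bases with a GC box in these stretches. Flt1 also held 1 TATA box (TATAAA or TTTATA), which 12.4% of all stretches had. A further RefSeq start of Vegfa lies inside the gene, and the 250 bases before it (chr17:46025164-46025413) held 2 ETS cores and 1 GC box. RefSeq stretches were matched for 6 of the 10 genes (Vegfa, Kdr, Flt1, Tek, Eng and Nrp1) and not for Angpt1, Angpt2, Cdh5 and Pecam1.

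Values are FPKM (fragments relative to gene length and depth, as the authors scaled them), which allows levels to be compared between genes. All 6 samples had 16005869 to 18455011 reads on genes, rebuilt from the FPKM values. A gene was tested where its FPKM averaged 0.5 or more over the 6 samples, with limma on log2(FPKM + 0.1), and it was called when its Benjamini-Hochberg adjusted p was below 0.05 and the change was over 2-fold. All 12 granulosa markers of the list used here (led by the inhibin genes Inha and Inhbb) were at 1 FPKM or more in all 6 samples, with a median of 261 FPKM in PBS. CTX replicate 2 stood apart from the other samples: on the first principal component, which held 46.8% of the variance, it lay at 74.7 and the others between -26.6 and 13.2. It was the lowest of the 6 samples in 28.1% of the 14463 genes tested and the highest in 29.9%. Results that rest on it are given with and without it. In bulk samples, fewer cells of a type and less RNA per cell cannot be told apart.

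Of the 6 that passed the filter on low values, 0 were called, 0 had an adjusted p below 0.05 in limma and 0 had an unadjusted p below 0.05. The other four (Kdr, Flt1, Tek and Pecam1) had a mean below 0.5 FPKM and were not tested in that fit. Over all 14463 genes tested, 0.961% were called, 1.76% had an adjusted p below 0.05 and 19.6% had an unadjusted p below 0.05. With voom on the rebuilt reads, 0 were again called or past the adjusted threshold, and only Cdh5 had an unadjusted p below 0.05 (0.0274, adjusted p = 0.191). Cdh5 had the lowest adjusted p of the 6, with a lower value in each CTX sample than in any PBS sample. Angpt2 was higher in 2 of the 3 CTX samples, and Vegfa lay in its PBS range in the same number of them.

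**Figure D1:**
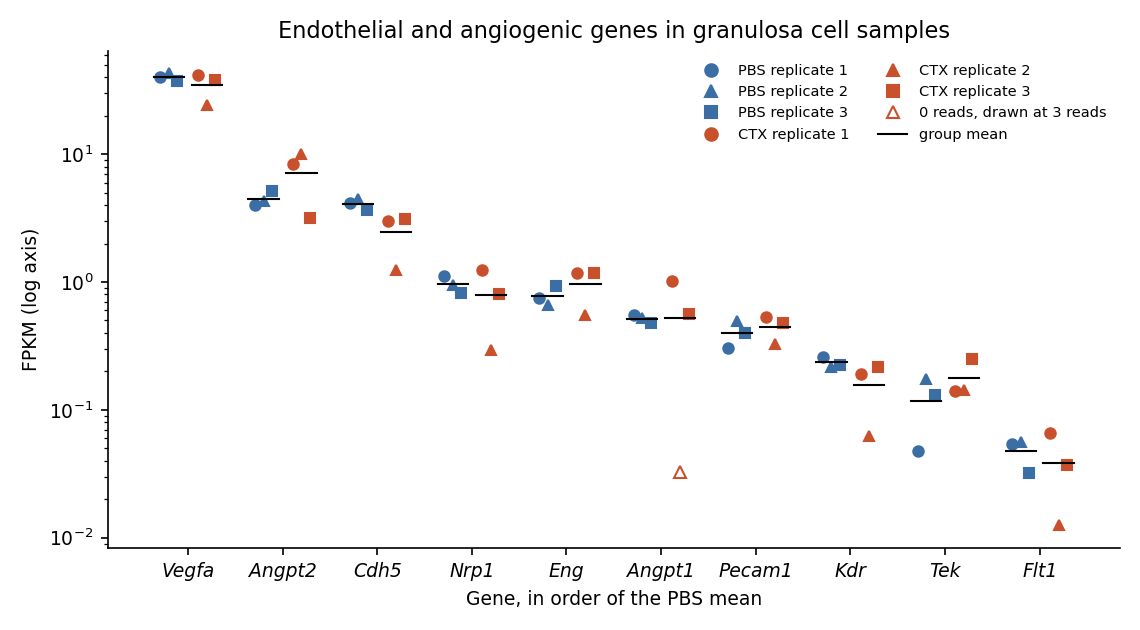
Level of each of the 10 genes in every sample, in FPKM on a log axis, with PBS samples in blue, CTX samples in red, the replicate given by the symbol and the group mean as a line. Vegfa lies at about 40 FPKM, Angpt2 and Cdh5 at a few FPKM and the other genes at about 1 FPKM or less, and CTX replicate 2 (red triangles) is the lowest sample for 7 of the 10 genes.

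Vegfa had the highest level of the 10 genes in every sample. It was at 39.9, 42.9 and 37.6 FPKM in PBS replicates 1, 2 and 3 and at 41.9, 24.1 and 37.9 FPKM in CTX replicates 1, 2 and 3. These values rested on 1830 to 3367 reads per sample. CTX replicates 1 and 3 lay inside the PBS range, and CTX replicate 2 alone lay below it. The mean was 40.1 ± 2.63 FPKM in PBS (SD, n = 3) and 34.6 ± 9.34 FPKM in CTX (SD, n = 3). The log2 fold change was -0.25 with a standard error of 0.21 and an adjusted p of 0.515, and its 95% interval of -0.75 to 0.25 spans folds of 0.596 to 1.19. Without CTX replicate 2 the log2 fold change was -0.01. In PBS, 94.5% of 22046 protein-coding genes had a lower mean than Vegfa. The gene lies on chromosome 17 (46016993 to 46032369, minus strand, GRCm38) and GENCODE M21 lists 13 transcripts for it, 8 of them protein-coding. Values are totals over the gene, so the splice forms of VEGFA that differ in how they bind matrix were not told apart.

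Angpt2, which encodes the angiopoietin linked to vessel remodelling and is also made by endothelial tip cells, was the next in level. Its 3 PBS samples had 4.0, 4.27 and 5.17 FPKM, and CTX replicates 1, 2 and 3 had 8.34, 9.96 and 3.18 FPKM. CTX replicates 1 and 2 were above every PBS sample and CTX replicate 3 was below every PBS sample. The reads behind them were 263, 289 and 309 in PBS and 558, 652 and 210 in CTX, so counting error was small beside the spread of the CTX samples. The log2 fold change was 0.52 with a standard error of 0.41 and an adjusted p of 0.501, with a 95% interval of -0.48 to 1.52. Without CTX replicate 3 it was 1.02 with an adjusted p of 0.0851, and without CTX replicate 2 it was 0.21. Angpt2 (chromosome 8, 18690263 to 18741562, minus strand) lies within Mcph1, a gene on the other strand that had a mean of 6.23 FPKM in PBS and 4.91 FPKM in CTX. Whether reads were counted by strand is not stated, and the part of Mcph1 in the Angpt2 values was not tested.

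Angpt1, the activating ligand of TEK, was low and lost its reads in 1 sample. It had 0.550, 0.524 and 0.474 FPKM in PBS (51, 50 and 40 reads) and 1.02, 0 and 0.558 FPKM in CTX (96, 0 and 52 reads). For the 0 reads of CTX replicate 2 a floor of 3 reads was set, which is 0.0325 FPKM, and the exact Poisson 95% interval reached 0.0399 FPKM. CTX replicate 1 was the highest of the 6 samples and CTX replicate 3 lay just above the PBS samples. The log2 fold change of -0.55 had a 95% interval of -2.72 to 1.61 and an adjusted p of 0.746. Without CTX replicate 2 it turned to 0.48 (adjusted p = 0.493). With voom on the rebuilt reads it was -1.85 (adjusted p = 0.498). Both -0.55 and -1.85 depend on the number added where a sample has 0 reads. In limma with a pseudocount of 1 the log2 fold change was -0.05, and with a pseudocount of 0.01 it was -1.54. Angpt2 exceeded Angpt1 in every sample. The ratio of their FPKM values was 7.27, 8.15 and 10.9 in PBS, and 8.20 and 5.70 in CTX replicates 1 and 3. In CTX replicate 2 it was at least 306, taking Angpt1 at 3 reads or fewer.

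The receptor genes were near the lower limit of what this depth shows. Kdr, the main signalling receptor for VEGFA, had 0.261, 0.217 and 0.226 FPKM in PBS and 0.189, 0.0624 and 0.216 FPKM in CTX. All 3 CTX values were below all 3 PBS values, but the nearest pair (0.216 in CTX replicate 3 and 0.217 in PBS replicate 2) came from 35 and 36 reads. With so few reads the exact Poisson 95% interval of the first was 0.151 to 0.301 FPKM and covered every PBS value. The fit with no filter on low values gave Kdr a log2 fold change of -0.44 with an adjusted p of 0.641. Vegfa exceeded Kdr 153-fold to 197-fold in PBS, and 221-fold, 386-fold and 175-fold in CTX replicates 1, 2 and 3.

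Flt1, the receptor that binds VEGFA tightly and whose soluble form acts as a trap for it, was the lowest of the 10 genes on average. It had 13, 14 and 7 reads in PBS and 16, 3 and 9 reads in CTX, which are 0.0320 to 0.0565 FPKM and 0.0125 to 0.0654 FPKM. The groups overlapped, and the fit with no filter gave a log2 fold change of -0.11 with an adjusted p of 0.830. A difference of moderate size in Flt1 was not detectable at this depth. Gene totals do not separate the soluble from the membrane form.

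Tek, the angiopoietin receptor, had 4, 15 and 10 reads in PBS and 12, 12 and 21 reads in CTX. These are 0.0476, 0.174 and 0.131 FPKM against 0.141, 0.144 and 0.249 FPKM. The highest sample was CTX replicate 3 and the lowest PBS replicate 1, with the other samples between them and mixed. The exact Poisson intervals of that pair of samples did not meet (0.0130 to 0.122 FPKM and 0.154 to 0.380 FPKM), but the groups overlapped, and with no filter the adjusted p was 0.642. Tie1, the partner receptor of TEK, was as low, at 0.0913 to 0.301 FPKM in PBS and 0.123 to 0.216 FPKM in CTX.

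The co-receptors Nrp1 and Eng were higher than Kdr, Flt1 and Tek in every sample, with means of 0.960 and 0.780 FPKM in PBS. Nrp1, which binds VEGFA and also class 3 semaphorins and is found on many cell types, had 1.11, 0.953 and 0.820 FPKM in PBS and 1.25, 0.294 and 0.810 FPKM in CTX. CTX replicate 1 was the highest sample, CTX replicate 3 was close to the lowest PBS sample and CTX replicate 2 was far below the rest, with 51 reads against 130 to 222 elsewhere. The log2 fold change was -0.42 with a 95% interval of -1.55 to 0.70 and an adjusted p of 0.626, and it turned to 0.07 without CTX replicate 2.

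Eng encodes endoglin, a co-receptor for BMP9 and BMP10 and other TGF-β ligands on endothelial cells. It had 0.749, 0.660 and 0.930 FPKM in PBS, and in CTX 1.17 and 1.19 FPKM in replicates 1 and 3 and 0.557 FPKM in replicate 2. The first pair was above every PBS sample and replicate 2 was below them. The log2 fold change was 0.23 with a standard error of 0.33 and an adjusted p of 0.710, and without CTX replicate 2 it was 0.55 with an adjusted p of 0.263. Endoglin's ligands Gdf2 (which encodes BMP9) and Bmp10 had 0 reads in all 6 samples. The 3′ end of Eng overlaps Fpgs, a gene on the other strand with a mean of 5.48 FPKM in PBS and 5.64 FPKM in CTX, and its part in the Eng values was not tested.

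Of the adhesion genes, Cdh5 encodes VE-cadherin, the cadherin of endothelial junctions, and had 4.17, 4.49 and 3.66 FPKM in PBS and 2.99, 1.25 and 3.11 FPKM in CTX. All 3 CTX samples were below all 3 PBS samples, with 228, 93 and 234 reads against 312, 346 and 249. Cdh5 and Kdr were the 2 of the 10 genes whose groups did not overlap. Cdh5 was the 1 tested gene of 6 whose groups did not overlap, and over all 14463 genes tested the groups did not overlap in 29.2%, with CTX lower in 14.1%. The mean was 4.10 ± 0.420 FPKM in PBS and 2.45 ± 1.04 FPKM in CTX (SD, n = 3 each). The log2 fold change was -0.82 with a standard error of 0.34, a 95% interval of -1.64 to 0.00 and an adjusted p of 0.256, so the fall did not pass the test. Without CTX replicate 2 it was smaller at -0.41, with an adjusted p of 0.130. When limma weighted the samples by their spread, it was -0.44 with an adjusted p of 0.0378, in a fit where most of the weight fell on CTX replicate 3.

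Pecam1 encodes CD31, the adhesion molecule most used to stain vessels. It had 0.306, 0.499 and 0.397 FPKM in PBS and 0.532, 0.326 and 0.475 FPKM in CTX, from 34 to 60 reads a sample. The groups overlapped, and with no filter the log2 fold change was 0.12 with an adjusted p of 0.872. Both genes mark endothelial cells, but Cdh5 exceeded Pecam1 by 13.6, 8.99 and 9.22 times in PBS and by 5.63, 3.83 and 6.54 times in CTX, with no overlap between the groups. Against Kdr, in contrast, the ratio of Cdh5 stayed in one range, at 16 to 20.6 in PBS and 14.4 to 20 in CTX. These ratios are given as descriptions, with no test. How often the ratios of other gene pairs do not overlap between the groups was not counted.

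**Figure D2:**
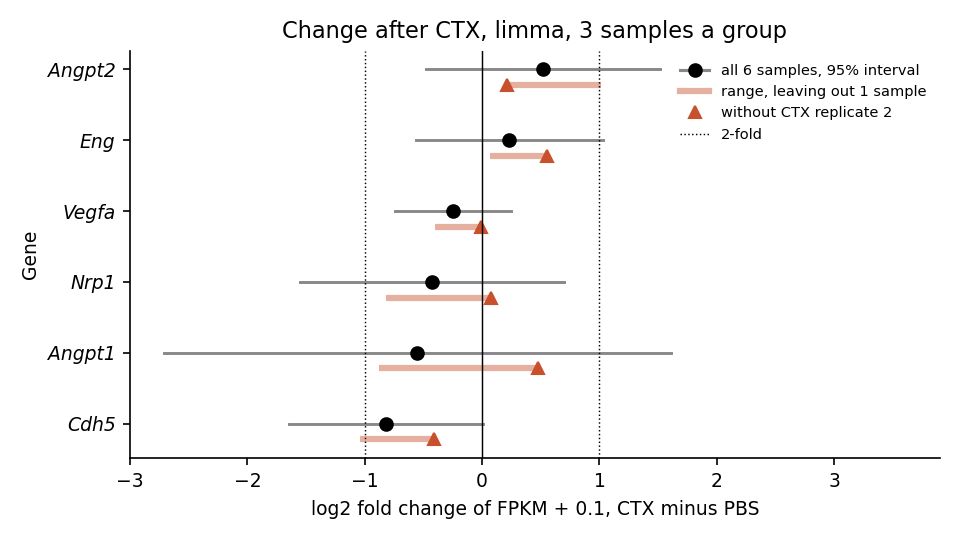
Log2 fold change of FPKM + 0.1, CTX minus PBS, for the 6 genes tested, with the 95% interval from limma in grey, the range over fits that each leave out 1 sample in red and the fit without CTX replicate 2 as a triangle. All 6 intervals reach or cross 0, and without CTX replicate 2 Vegfa, Nrp1 and Angpt1 move to -0.01, 0.07 and 0.48. The dotted lines mark 2-fold.

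The order of levels in PBS was Vegfa, then Angpt2 and Cdh5, then Nrp1 and Eng, then Angpt1 and Pecam1, then Kdr, and last Tek and Flt1. Genes joined by "and" had overlapping ranges over the 3 samples and were not separated in order. In CTX the sample ranges of Angpt2 and Cdh5 no longer overlapped, with means of 7.16 and 2.45 FPKM. The gap between the ranges was narrow. In CTX replicate 3 Angpt2 had 3.18 FPKM from 210 reads and Cdh5 had 3.11 FPKM from 234 reads. The exact Poisson intervals of these values overlapped (2.76 to 3.64 FPKM and 2.72 to 3.53 FPKM). Eng, Nrp1, Angpt1 and Pecam1 followed, each overlapping its neighbour in the order, and Tek, Kdr and Flt1 came last in the same way. In PBS the step from Vegfa to Angpt2 was 8.95-fold and the step from Cdh5 to Nrp1 was 4.28-fold.

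CTX replicate 2 was the lowest of the 6 samples for 7 of the 10 genes (Vegfa, Kdr, Flt1, Cdh5, Angpt1, Eng and Nrp1) and the highest for 1 (Angpt2). Among the 6 genes tested it was the lowest for 5, beside the 28.1% of all tested genes given above. Its Nrp1 was 23.5% and its Cdh5 41.7% of the level in CTX replicate 1, while its Tek was 102% of that level. Over the 6 genes tested, the median log2 fold change was -0.34 with all samples and 0.14 without CTX replicate 2. Over all genes tested it was -0.01 with or without it.

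Other endothelial genes were looked at to see whether the low receptor levels were shared. Of 28 further endothelial markers, 22 were below 1 FPKM in all 6 samples and 16 below 0.5 FPKM. Vwf, Emcn and Erg, which encode von Willebrand factor, endomucin and an endothelial ETS factor, were at 0.0104 to 0.354 FPKM (named after their values were seen). The median of all 28 in PBS was 0.217 FPKM, and their summed level was 38.1 to 41.8 FPKM in PBS and 42.5, 25.4 and 32.8 FPKM in CTX replicates 1, 2 and 3. Most of that sum came from a few genes. Clec14a, a surface lectin of endothelial cells, had 18.0, 17.5 and 18.7 FPKM in PBS and 18.8, 0.444 and 9.28 FPKM in CTX. The stem cell and vessel antigen gene Cd34 had 4.54, 4.54 and 5.41 FPKM in PBS and 4.69, 0.340 and 1.78 FPKM in CTX. Both kept their PBS level in CTX replicate 1 and were lowest in CTX replicate 2, as Cdh5 was. The transcription factor Sox18 went the other way, at 7.24, 8.55 and 8.57 FPKM in PBS and 9.64, 18.6 and 12.5 FPKM in CTX. Of the 8 markers that passed the filter 0 were called, and Sox18 was the 1 whose groups did not overlap with CTX higher (log2 fold change 0.69, adjusted p = 0.195), where 15.0% of all tested genes did so. Among the rest of the 28, which were under the filter, the groups did not overlap in Cyyr1 and Mmrn2 with CTX higher. In Nos3 and Adgrl4 they did not overlap with CTX lower. Of all tested genes, 29.2% did not overlap in either direction. Few reads stood behind Nos3 (25, 27 and 19 in PBS, 21, 8 and 20 in CTX) and Adgrl4 (3, 5 and 2 in PBS, 0, 0 and 2 in CTX). Cyyr1 had 9, 12 and 11 reads in PBS (0.0568 to 0.0764 FPKM) and 135, 65 and 98 reads in CTX (0.412 to 0.838 FPKM). The fit with no filter gave it a log2 fold change of 2.05 with an adjusted p of 0.0694.

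**Figure D3:**
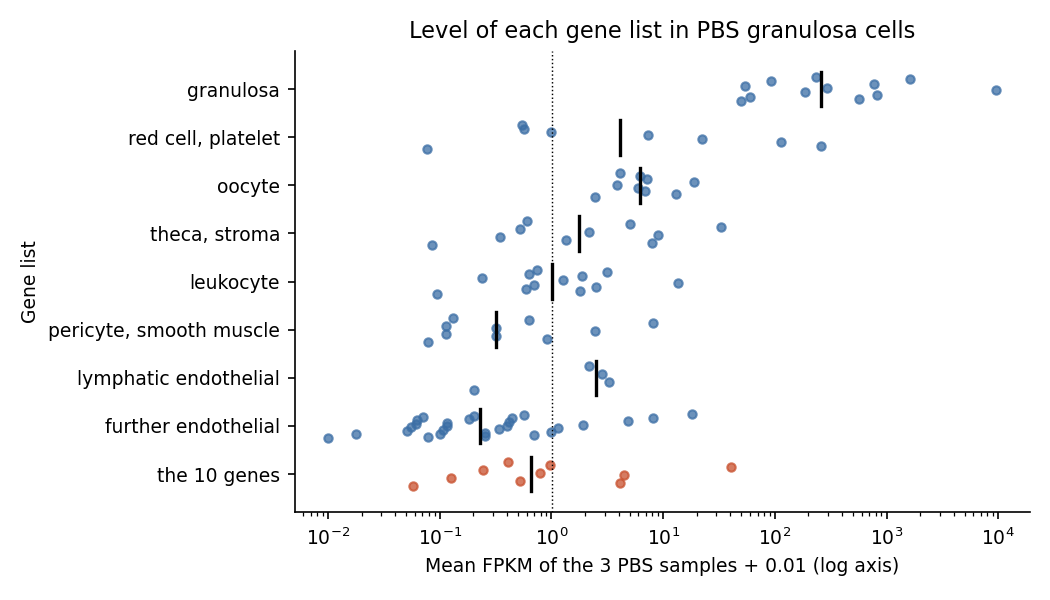
Mean FPKM of the 3 PBS samples, plus 0.01, for each gene of 9 lists on a log axis, with the list median as a black line and 1 FPKM as a dotted line. The 10 genes (red) spread from Flt1 to Vegfa, the further endothelial markers lie mostly below 1 FPKM with a median of 0.217, and the granulosa markers lie highest with a median of 261.

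Other cell types that could be carried along with GCs were measured in the same way, and none of their lists had a gene called except those of the vessel wall and lymphatics. Theca and stromal markers summed to 58.3 to 61.6 FPKM in PBS and to 81.7, 13.4 and 53.3 FPKM in CTX replicates 1, 2 and 3, led by Cyp17a1, an enzyme of theca androgen synthesis, and by the collagen gene Col1a1. Red cell and platelet markers, which accompany blood, summed to 320 to 455 FPKM in PBS and 139 to 498 FPKM in CTX. Leukocyte markers summed to 25.2 to 28.7 FPKM in PBS and to 42.4, 77.5 and 29.8 FPKM in CTX replicates 1, 2 and 3. Of the 12, 6 were at 1 FPKM or more in all 6 samples. Only 1 was below 0.5 FPKM in all 6, Ptprc, the pan-leukocyte antigen CD45, at below 0.1 FPKM. CTX replicate 2 was the highest sample for 9 of the 12, beside 29.9% of all tested genes. In 4 of the 10 tested the groups did not overlap with CTX higher, beside 15.0% of all tested genes. Oocyte markers summed to 39.5 to 85.8 FPKM in PBS and 56.3 to 97.9 FPKM in CTX. The summed theca and stromal level was thus lowest in the sample with the lowest Cdh5, Nrp1, Kdr and Angpt1, and 7 of the 10 theca and stromal genes were lowest there. Of the 9 that were tested, 6 had a higher fitted value in CTX, with a median log2 fold change of 0.42, and 0.80 without CTX replicate 2. Of the 12 granulosa markers, 8 were lowest in CTX replicate 2, as were 28.1% of all tested genes. In 8 of 12 the groups did not overlap with CTX lower, beside 14.1% of all tested genes, although 0 were called. Their sum was 13857 to 15178 FPKM in PBS and 12790, 11910 and 11896 FPKM in CTX replicates 1, 2 and 3, so it was lower in every CTX sample. Cyp19a1, the aromatase of estrogen synthesis, had 59.2 to 62.4 FPKM in PBS and 47.6, 6.61 and 32.5 FPKM in CTX. The part of these cell types in the values of the 10 genes was not tested.

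Of 5 tested markers of pericytes and smooth muscle, the cells that wrap vessels, 2 were called, both higher in CTX, where 0.802% of all tested genes were called higher. Notch3, a receptor of mural cells, had 0.377, 0.305 and 0.238 FPKM in PBS and 5.23, 1.93 and 4.90 FPKM in CTX (log2 fold change 3.23, adjusted p = 0.0191). Acta2, smooth muscle actin, had 7.94, 7.66 and 8.60 FPKM in PBS and 14.7, 20.5 and 16.7 FPKM in CTX (log2 fold change 1.08, adjusted p = 0.0166). Pdgfrb, the receptor most used to define pericytes, had a log2 fold change of -0.12 (adjusted p = 0.810). Cspg4, which encodes the proteoglycan NG2, had a log2 fold change of 0.84 (adjusted p = 0.140), with no overlap between the groups. When 1 sample was left out, Notch3 kept its call only without CTX replicate 1 or 2 (adjusted p of 0.0866 to 0.105 without any other sample), with log2 fold changes of 2.99 to 3.68. Acta2 kept its call only without CTX replicate 1, with log2 fold changes of 0.95 to 1.19, and without CTX replicate 2 it passed the adjusted threshold (adjusted p = 0.00516) but was under 2-fold. With voom on the rebuilt reads the adjusted p of Notch3 was 0.0685 and that of Acta2 was 0.0255.

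Of 3 tested lymphatic markers, 1 was called, and it was lower, where 0.159% of all tested genes were called lower. Lyve1, a hyaluronan receptor of lymphatic endothelium and some macrophages, had 3.06, 3.06 and 3.68 FPKM in PBS and 0.737, 0.212 and 0.325 FPKM in CTX. Its log2 fold change was -2.80 with a standard error of 0.37 and an adjusted p of 0.0218, and the call was lost without CTX replicate 3 or any 1 PBS sample (adjusted p of 0.0911 to 0.128). Flt4, the VEGFC receptor of lymphatic vessels, had 2.11 to 2.21 FPKM in PBS and 1.89, 0.719 and 1.61 FPKM in CTX, with no overlap but an adjusted p of 0.306. Podoplanin (Pdpn), a mucin-like protein of lymphatic endothelium, had 2.68 to 3.00 FPKM in PBS and 2.67, 3.97 and 3.81 FPKM in CTX, with a log2 fold change of 0.26 (adjusted p = 0.412). The lymphatic factor Prox1 was at 0.148 to 0.213 FPKM in all samples.

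The rest of the VEGF and angiopoietin pathway had no call. Of its 23 genes in the table, 16 were tested, 8 with a higher and 8 with a lower fitted value, and the median log2 fold change was 0.00. Vegfb, a ligand of FLT1, was as abundant as Vegfa, at 34.9 to 40.2 FPKM in PBS and 32.1 to 40.3 FPKM in CTX, and differed between groups by -0.01 (log2, adjusted p = 0.959). The class 3 semaphorin gene Sema3g and the neuropilin-binding adaptor gene Gipc1 were also well measured, with log2 fold changes of -0.01 (adjusted p = 0.964) and 0.01 (adjusted p = 0.967). Pgf, another FLT1 ligand, had only 1 to 5 reads a sample. In all 6 samples Vegfa and Vegfb were thus measured at far higher levels than the receptor genes Kdr and Flt1.

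Genes that act beside Eng were measured too. Of 13 tested genes of the endoglin and BMP9 pathway, 0 were called. Id3, Id2 and Tgfbr1 were among the highest, and Id3, a target of BMP signalling, had a log2 fold change of -0.38 (adjusted p = 0.0927). Its groups did not overlap, with CTX lower, and in 3 other genes of the list they did not overlap with CTX higher, beside 14.1% and 15.0% of all tested genes. These were Id1, another BMP target (log2 fold change 0.81, adjusted p = 0.163), the inhibitor Smad7 (0.91, adjusted p = 0.287) and the receptor Tgfbr2 (0.29, adjusted p = 0.283). Of 8 tested tip-cell genes, a list that includes Angpt2, and of 8 tested angiogenesis inhibitors, 0 were called. The groups did not overlap in 1 tip-cell gene with CTX higher and in 1 with CTX lower, and in 1 inhibitor with CTX lower. The inhibitor gene Cxcl10, under the filter, had 1, 1 and 0 reads in PBS and 13, 31 and 25 reads in CTX. With no filter its log2 fold change was 2.47 with an adjusted p of 0.0518 in limma. Of the 10 tip-cell genes, CTX replicate 2 was the lowest sample for 4 and the highest for 3. Pdgfb, which encodes a growth factor for pericytes and had the highest mean of the list, had 8.64 to 9.61 FPKM in PBS and 9.44 to 11.0 FPKM in CTX (log2 fold change 0.18, adjusted p = 0.298). The chemokine receptor gene Cxcr4 had 1.43 FPKM in CTX replicate 2 against 4.91 to 9.0 FPKM elsewhere, and the apelin gene Apln had 0.161 against 3.08 to 5.24 FPKM. The inhibitors Thbs1 and Sparc were high in both groups, at 241 to 268 and 259 to 279 FPKM in PBS and 251 to 403 and 174 to 369 FPKM in CTX.

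Of 10 tested genes of other angiogenic factors, 1 was called, and it was higher. Edn1 encodes endothelin 1, a peptide that constricts vessels. It had 0.236, 0.357 and 0.231 FPKM in PBS and 1.14, 2.56 and 1.70 FPKM in CTX, with a log2 fold change of 2.29 and an adjusted p of 0.0335. The call held without CTX replicate 1 or 2 and was lost without any other sample (adjusted p of 0.119 to 0.158). It was also lost with a pseudocount of 1, with no filter and with voom on the rebuilt reads (adjusted p of 0.0525, 0.0595 and 0.0608). Its PBS values rested on 8 to 14 reads. In 2 of the 10 the groups did not overlap with CTX higher and in 2 with CTX lower, beside 15.0% and 14.1% of all tested genes. Edn2, another gene of the list, was lower and not called. It had 8.17, 7.87 and 8.57 FPKM in PBS (213, 211 and 203 reads) and 2.83, 0.154 and 2.67 FPKM in CTX (75, 4 and 70 reads).

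Vegfa is a known target of hypoxia-inducible factors, so it was set beside 15 tested genes of that response. None was called, but 14 of the 15 had a lower fitted value in CTX and in 9 of the 15 the groups did not overlap with CTX lower, a pattern that 14.1% of all tested genes had. Their median log2 fold change was -0.53, and -0.34 without CTX replicate 2, beside -0.01 over all tested genes. Ldha, lactate dehydrogenase, had 319, 307 and 343 FPKM in PBS and 216, 191 and 198 FPKM in CTX, with a log2 fold change of -0.68 and an adjusted p of 0.0192. P4ha1, a collagen prolyl hydroxylase, had 56.5 to 61.9 FPKM in PBS and 36.6 to 44.5 FPKM in CTX, with a log2 fold change of -0.53 and an adjusted p of 0.0462. These were the 2 genes of the list that passed the adjusted threshold with all 6 samples. Both missed it without CTX replicate 3 or any 1 PBS sample (adjusted p of 0.0857 to 0.109 for Ldha and 0.142 to 0.213 for P4ha1). Their log2 fold changes were -0.73 to -0.64 and -0.60 to -0.46 over the fits that leave out 1 sample. Without CTX replicate 2 both passed it (adjusted p of 0.0184 and 0.0268). Slc2a1, Pdk1 and Pgk1 also passed it in that fit (adjusted p of 0.0249, 0.0279 and 0.0456), with log2 fold changes of -0.74, -0.76 and -0.54. Vegfa did not share the fall of Ldha and P4ha1 sample by sample: CTX replicates 1 and 3 stayed in its PBS range while their Ldha and P4ha1 lay below every PBS sample. Overlapping groups were not particular to Vegfa, as the groups also overlapped in the genes of the list outside those 9. The difference between Vegfa and the list was not tested. Of the factor genes themselves, Hif1a had 74.1 to 78.8 FPKM in PBS and 53.8 to 73.4 FPKM in CTX (log2 fold change -0.25, adjusted p = 0.308), and Epas1 had 20.2 to 24.9 FPKM in PBS and 25.1 to 32.7 FPKM in CTX (log2 fold change 0.35, adjusted p = 0.209).

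**Figure D4:**
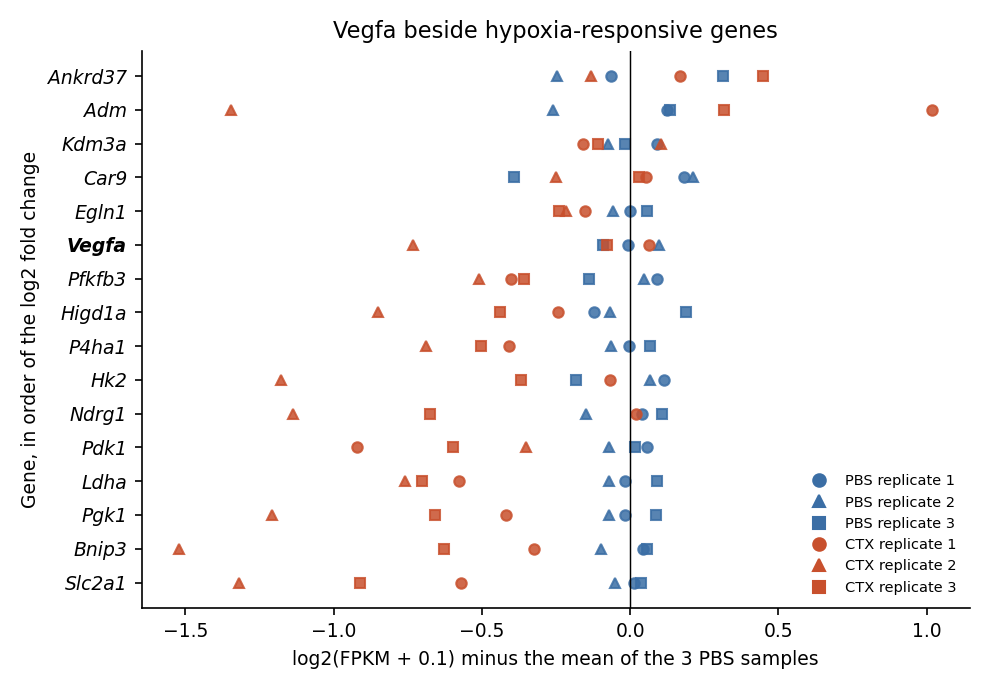
Log2(FPKM + 0.1) of each sample minus the mean of the 3 PBS samples, for Vegfa (bold) and 15 hypoxia-responsive genes, ordered by log2 fold change, with PBS in blue and CTX in red. For 9 of the 15 genes all CTX samples lie left of all PBS samples, and for the rest the groups overlap. For Vegfa 2 CTX samples lie among the PBS samples and CTX replicate 2 lies apart.

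Genes with the pattern most like that of Vegfa over the 6 samples were Stc2, Apbb1, Tle3, Apol6 and Tpcn2, with Pearson r from 0.993 to 0.997 on the log2 scale. Of 11069 protein-coding genes compared, 844 had r above 0.9, so a high r was common. Without CTX replicate 2, r for these genes was 0.911 to 0.963. The genes most like the mean standardised level of Kdr, Flt1, Pecam1, Cdh5, Tek and Eng were Hirip3, Paxx, Thy1, Cort and Nat8, with r from 0.974 to 0.991, and 0.897 to 0.982 without CTX replicate 2, and 210 genes had r above 0.9. That mean was -1.30 SD units in CTX replicate 2 and between -0.22 and 0.54 in the other samples.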

How the data were processed

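Total RNA of GCs was used to build libraries with the NEBNext Ultra kit, whose name does not mark strand, and strand use in counting is not stated. The authors deposited FPKM values per gene on mm10 (GRCm38). The submitters' processing notes name CASAVA 1.8, fastp, HISAT2 2.0.5, featureCounts 1.5.0-p3 and DESeq2 1.20.0, with no role or order. The deposited table also holds the authors' group mean signal, log2 fold change, p-value and adjusted p-value, which were not used.

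Scaled back by gene length and depth, 100% of values came out as whole reads (tolerance 0.05), so reads were rebuilt. Groups came from the labels. Genes averaging 0.5 FPKM or more were compared as log2(FPKM + 0.1) with limma 3.58.1 (lmFit, eBayes with trend) in R 4.3.3, two-sided, with Benjamini-Hochberg adjustment over all 14463 genes. On this scale folds of low genes come out too small. Exact Poisson intervals and the floor of 3 reads cover counting error only. Python 3.11.15, pandas 2.3.3, NumPy 2.4.6, SciPy 1.17.1 and matplotlib 3.10.9 were used.

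The genes and lists were chosen with earlier results of these data known. All 10 genes are named, and of other lists those called or past the adjusted threshold and, where there were none, 2 to 4 of the highest mean. The leukocyte, oocyte, and red cell and platelet lists are the exception, given by values of the whole list. Genes outside this rule (Gdf2, Bmp10, Tie1, Flt4, Prox1, Pgf, Pdgfrb, Pdpn, Cspg4, Id1, Smad7, Tgfbr2, Cyp19a1, Ptprc, Vwf, Emcn, Erg, Edn2, Cyyr1, Mmrn2, Nos3, Adgrl4, Slc2a1, Pdk1, Pgk1, Cxcl10) were named after their values were seen. Likeness was Pearson's r over 6 samples among protein-coding genes with a mean of at least 1 FPKM. Coordinates matched GENCODE M21 for all 10 genes. Overlapping genes were looked up there.

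The labels number the samples 1 to 3 in both groups but state no pairing, and each sample held other mice, so the main fit did not pair them. Same-numbered samples deviated from their group means with r of 0.056, 0.024 and 0.006. With so few samples a group and CTX replicate 2 far from the others, these values cannot exclude a batch shared by number. Nothing beyond the study's wording says that samples were separate cultures or litters, so p-values measure the spread between these samples. Other settings tried were a pseudocount of 1 or of 0.01, a filter at 5 FPKM or none, quantile normalization, scaling to library totals, the replicate block, arrayWeights, voom on the rebuilt reads, protein-coding genes only, eBayes without trend and each sample left out in turn.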

Additional observations from a re-analysis of the deposited data

How the results depend on the processing

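No setting that was run called any of the 10 genes. Leaving out 1 sample at a time, 0 of the 10 genes passed the adjusted threshold, the groups of 2 to 4 of the 10 genes did not overlap (2 with all samples, 1 after quantile normalization; the share of all tested genes was 34.8% to 48.8%, against 29.2% with all samples and 30% after quantile normalization), and the number of genes called over the whole table ranged from 58 to 208, against 139. The called genes of the pathway and marker lists ranged from 0 to 6 in those fits, against 4. With arrayWeights, whose weight for CTX replicate 3 was 16.6 and for the other samples 0.163 to 1.6, 657 genes were called in the table and 9 in the lists, and 2 of the 10 genes (Cdh5 and Eng, the latter with a log2 fold change of 0.61 and an adjusted p of 0.0236) passed the adjusted threshold without reaching 2-fold. The replicate block gave 50 called genes, 0 in the lists and 0 among the 10 genes, and Ldha and P4ha1 had adjusted p of 0.137 and 0.138 in it, and every sample pair was only a shared number. A filter at 5 FPKM left 1 called list gene and voom left 2, and P4ha1 missed the adjusted threshold with no filter (0.0743) and without trend (0.0897). Directions turned for Angpt1 with arrayWeights (0.069) and without CTX replicate 2 (from -0.88 to 0.48 over the fits that leave out 1 sample), for Angpt2 with arrayWeights (-0.40) and for Nrp1 without CTX replicate 2 (from -0.82 to 0.074 over those fits). Of the untested genes, Flt1 turned to 0.034 without CTX replicate 2 and Pecam1 to -0.023 without PBS replicate 1. The cause was not tested. Another scaling moved the median of all genes by at most 0.03 on the log2 scale. For Kdr, Flt1, Tek and Angpt1 the reads per sample limit what can be seen.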
